A study of Mus musculus with 24 samples.

Results

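Antigen processing for MHC class I was followed through 10 genes in mouse liver: Ubd, which encodes the ubiquitin-like modifier FAT10; Psmb8, Psmb9 and Psmb10, the inducible catalytic subunits of the immunoproteasome; Tap1 and Tap2, the subunits of the peptide transporter of the endoplasmic reticulum; the class I heavy chains H2-K1 and H2-D1 and their light chain B2m; and Nlrc5, a transactivator of class I genes. They are 10 of the 56205 Ensembl gene rows of the deposited count table and were taken by symbol, all 10 being found. The genes were chosen by their measured difference between the diets in these same libraries, so their diet differences are given as a description with no test. Poly(A) RNA of whole liver was sequenced from C57BL/6J mice of both sexes after 20 weeks on a high fat diet (FFD) or a control diet, with 12 libraries per diet. No transgene, deletion or drug is named in the labels of either diet. The study's methods give an age of 8 to 10 weeks at the start for mice put on a diet rich in palm oil, fructose and cholesterol, and a matched control diet, while the labels do not give the composition of the diets.

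The libraries held 14468418 to 22112552 counts. Sex was not labelled for single libraries. Xist, the RNA that coats the inactive X chromosome, gave 2664 to 6285 counts in replicates 1 to 6 of each diet, whose counts of the Y-linked Ddx3y were all 0. Replicates 7 to 12 gave at most 3 counts of Xist and 448 to 1016 of Ddx3y. A cut at 1000 counts of Xist thus gave 6 high-Xist and 6 low-Xist libraries per diet, treated here as library sets. The series design has 6 mice per diet and sex. By Xist and Ddx3y the high-Xist libraries read as female and the low-Xist libraries as male. Other differences between replicates 1 to 6 and replicates 7 to 12 cannot be told apart from sex. Values are CPM, read counts divided by the library's size after scaling by the trimmed mean of M values (TMM), which sets aside the most extreme genes of each library. The hepatocyte markers (6 genes, among them Alb) summed to 37337 to 91344 CPM in the FFD libraries and 82728 to 128922 in the control libraries, as a liver label implies. Control replicate 10 stood apart: its TMM factor was 0.679, against 0.851 to 1.34 in the other 23 libraries.

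FAT10 is a modifier made of tandem ubiquitin-like domains that is conjugated to proteins and sends them to the proteasome. It is known to be induced by interferon-gamma and tumour necrosis factor and is studied in the liver for its presence in diseased tissue. Under the same cytokines, newly made 20S proteasomes take up the inducible subunits in place of the constitutive Psmb6 (replaced by Psmb9), Psmb7 (replaced by Psmb10) and Psmb5 (replaced by Psmb8), which alters the peptides that are cut. TAP carries these peptides into the endoplasmic reticulum, where they are loaded on heavy chains paired with B2m and shown to CD8 T cells. NLRC5 acts at class I promoters together with the RFX complex, CREB family factors and NF-Y.

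The promoters of Ubd, H2-K1, H2-D1 and B2m are shown because they set the gene with the large diet difference beside class I genes that share its classes of motif. A promoter here is 250 bases before to 50 after the RefSeq start (build GRCm38.p6), and 8 of the 10 genes had one. Tap2 and Nlrc5 had no entry. Capitals mark the interferon-type element AANNGAAA, the NF-κB consensus, and TGACG followed after 20 bases by ATTGG, each searched on both strands. The motifs, and the spacing of 20 bases, were chosen after these promoters had been read.
Ubd: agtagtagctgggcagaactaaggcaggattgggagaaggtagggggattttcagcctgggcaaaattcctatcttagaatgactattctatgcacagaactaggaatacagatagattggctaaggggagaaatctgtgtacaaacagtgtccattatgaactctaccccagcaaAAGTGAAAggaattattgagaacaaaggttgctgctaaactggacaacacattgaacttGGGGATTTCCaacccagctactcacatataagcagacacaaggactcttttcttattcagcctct
H2-K1: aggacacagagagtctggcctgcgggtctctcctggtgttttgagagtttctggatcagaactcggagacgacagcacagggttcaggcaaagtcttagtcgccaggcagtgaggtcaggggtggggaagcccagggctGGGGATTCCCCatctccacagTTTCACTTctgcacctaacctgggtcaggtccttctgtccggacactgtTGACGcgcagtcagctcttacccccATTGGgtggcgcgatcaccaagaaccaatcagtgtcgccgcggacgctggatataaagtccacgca
H2-D1: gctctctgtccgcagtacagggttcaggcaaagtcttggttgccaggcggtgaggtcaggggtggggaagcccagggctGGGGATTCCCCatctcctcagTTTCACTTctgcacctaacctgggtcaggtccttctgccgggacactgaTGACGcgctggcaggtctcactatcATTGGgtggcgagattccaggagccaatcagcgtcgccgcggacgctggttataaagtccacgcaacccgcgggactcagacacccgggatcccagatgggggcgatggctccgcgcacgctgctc
B2m: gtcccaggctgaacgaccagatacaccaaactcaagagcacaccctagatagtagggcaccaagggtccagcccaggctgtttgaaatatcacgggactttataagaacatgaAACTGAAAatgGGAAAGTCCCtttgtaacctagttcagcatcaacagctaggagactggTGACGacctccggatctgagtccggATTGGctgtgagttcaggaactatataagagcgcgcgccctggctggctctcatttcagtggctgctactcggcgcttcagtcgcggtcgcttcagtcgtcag
These are chr17:37193642-37193941 (plus strand) for Ubd, chr17:34000298-34000597 (minus strand) for H2-K1, chr17:35262844-35263143 (plus strand) for H2-D1 and chr2:122147437-122147736 (plus strand) for B2m. Each runs 5′ to 3′ on the strand of its gene.

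All 4 held AANNGAAA and an NF-κB match, a pair of motifs found together in 0.853% of 32817 promoters of the same length. Of the 8 genes with a window these were the 4 that held them. They are shown because they share these motifs, so nothing is read from 4 of 4 beside that share. The same limit holds for the spaced pair below, whose spacing was taken from these promoters. Taken alone, AANNGAAA was in 23.9% of those promoters and the NF-κB consensus in 4.504%. In Ubd the interferon-type element began 74 bases and the NF-κB match 15 bases before the start. H2-K1 and H2-D1 carried the same letters at both motifs, GGGGATTCCCC and TTTCACTT, and further TGACG and ATTGG with 20 bases between them. That spaced pair was also in B2m, was absent from these letters of the Ubd window, and was found in 0.0945% of promoters (31 of 32817). The motif TGACG alone was in 20.8% and ATTGG alone in 37.4%, both counted again within the spaced pair. The windows of Psmb9 and Tap1, which lie head to head, overlapped by 275 bases. They held the same single TGACG and ATTGG without that spacing. The windows of Psmb8, Psmb9, Psmb10 and Tap1 held neither the interferon-type element nor the NF-κB match. That of Psmb8 (chr17:34197945-34198244) lies inside the annotated gene, which starts at 34197721, so the bases before that start were not searched. The GAS element TTCNNNGAA was in the window of Psmb8 alone and in 8.29% of all promoters.

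Ubd, on chromosome 17 (37193892 to 37196095, plus strand, GRCm38), was scarce in control livers and higher in every FFD liver. Among FFD livers, the high-Xist libraries had 5.07, 5.497, 8.63, 2.99, 3.18 and 5.27 CPM in replicates 1 to 6. The low-Xist libraries had 15.7, 12.5, 30.4, 19.8, 22.5 and 29.3 CPM in replicates 7 to 12. The 12 control libraries lay between 0.0991 and 1.64 CPM (median 0.364), the highest being replicate 11, then replicate 10 (1.02) and replicate 6 (0.877). All 12 FFD libraries were above all 12 control libraries, and within the FFD the 6 libraries with low Xist were all above the 6 with high Xist. In raw counts the FFD libraries had 57 to 718 and the control libraries 2 to 29, so counting error is large in the controls. The group levels were 13.4 ± 10.01 in FFD livers against 0.514 ± 0.463 in control livers (SD, n = 12 each), a fitted log2 fold change of 4.74 (SE 0.49), which is 26.7-fold.

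**Figure D1:**
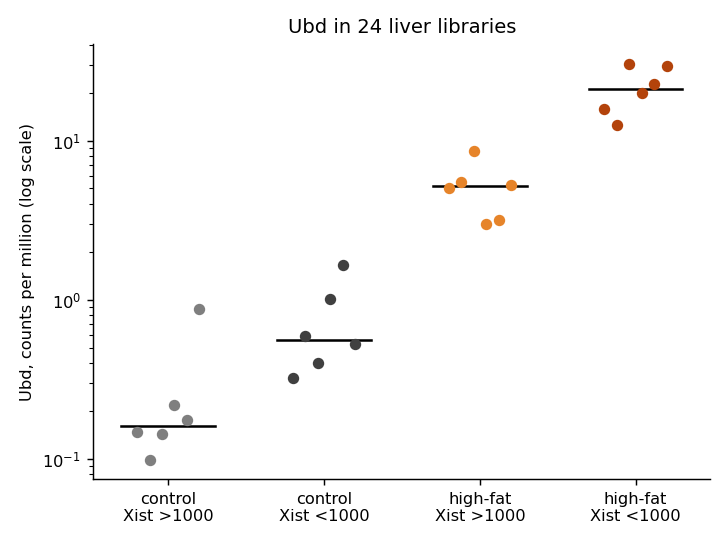
Ubd in CPM (log axis) in each of 24 libraries, split by diet and by Xist above or below 1000 counts, with a bar at each group's median (n = 6). The FFD points lie between 2.99 and 30.4, above all control points (0.0991 to 1.64).

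In tests described from here on, a gene was called at a Benjamini-Hochberg adjusted p of at most 0.01 in the edgeR quasi-likelihood fit with a log2 fold change beyond 0.5 in size. For the 10 genes, whose choice used the diet difference, this is no test of the diet, and the fitted value of Ubd was the 1 of the 10 that lay past both limits. Over all 17913 genes tested, 13.2% were called higher and 4.99% lower on the FFD (18.2% in either direction). These were 2372 and 894 genes, and 3827 and 226 when library totals alone set the scale, which moved the median log2 fold change of all genes from -0.03 to 0.26. Nothing is read from the count of 1 of 10 against this background. The log2 fold changes of the other 9 genes ran from -0.14 to 0.33, with a median of 0.17. With library totals alone they ran from 0.15 to 0.62, with Ubd at 5.104: Psmb8 was then at 0.43, Psmb9 at 0.50, Psmb10 at 0.46, Tap1 at 0.60, Tap2 at 0.57, B2m at 0.37 and Nlrc5 at 0.36, all to be set beside the median of 0.26 over all genes. The Ubd value under TMM was 4.14 among the 12 high-Xist libraries and 4.89 among the 12 low-Xist libraries. In whole tissue, a change in the number of cells that make an RNA cannot be told apart from a change in the RNA made per cell.

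Under TMM scaling no listed gene that attaches, binds or reads FAT10 was called, where 13.2% of all genes were called higher and 4.99% lower. Lists this short would hold few calls or none at that share, so nothing is read from their counts. Of 6 on the list (Uba6, its activating enzyme; Ube2z, its conjugating enzyme; Nub1, Psmd4, Hdac6 and Sqstm1, which bind it), 0 were called by edgeR, 0 by DESeq2 and 0 by limma-voom, with 2 at an unadjusted p under 0.05. Sqstm1, the autophagy receptor p62, had a log2 fold change of 0.37 (adjusted p = 4.92e-04), below the size threshold. Ube2z was at -0.03 (adjusted p = 0.726) and Psmd4 at -0.07 (adjusted p = 0.626). The list's median log2 fold change was -0.08, beside -0.03 over all genes, and 0.23 beside 0.26 with library totals alone, where 1 was called higher. Of 14 other modifiers of the ubiquitin family, 0 were called by edgeR or limma-voom and 1 by DESeq2 (5 at an unadjusted p under 0.05), with a median of -0.11. With library totals alone it was 0.21, with 1 called higher. Among the most abundant of these were genes whose products join ubiquitin, or a protein like it, to a ribosomal protein: Fau, at -0.62 (adjusted p = 0.0127), and Rps27a, at -0.53 (adjusted p = 0.0289).

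The inducible proteasome subunits overlapped between the diets. Psmb8, which replaces Psmb5, ran from 34.00 to 52.9 CPM (median 44.2, n = 12) in FFD livers and from 22.5 to 58.4 (median 38.00, n = 12) in control livers. Its log2 fold change was 0.14 (SE 0.11). The control libraries spread further than the FFD libraries, with replicate 6 highest and replicate 9 lowest. Psmb9, the counterpart of Psmb6, ran from 27.95 to 38.4 CPM (median 33.8, n = 12) in FFD livers and from 18.7 to 57.6 (median 23.6, n = 12) in control livers. Its log2 fold change was 0.18 (SE 0.15), and control replicates 10 and 6 were above every FFD library. Psmb10, the counterpart of Psmb7 on chromosome 8, ran from 38.5 to 60.98 CPM (median 47.7, n = 12) in FFD livers and from 28.2 to 62.6 (median 40.9, n = 12) in control livers. Its log2 fold change was 0.17 (SE 0.12), and the same 2 control libraries were the highest of the 24. The placing of control replicate 10 in both genes rests on TMM scaling, with its factor of 0.679. Its raw counts were 566 for Psmb9 and 614 for Psmb10 of 14468418 in all. FFD replicate 11 had 754 for Psmb9 of 17301498, and FFD replicate 6 had 1216 for Psmb10 of 18744081. Psmb9 and Tap1 overlap at their 5′ ends in the annotation, and whether counting used strand is not given in the sources used here.

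**Figure D2:**
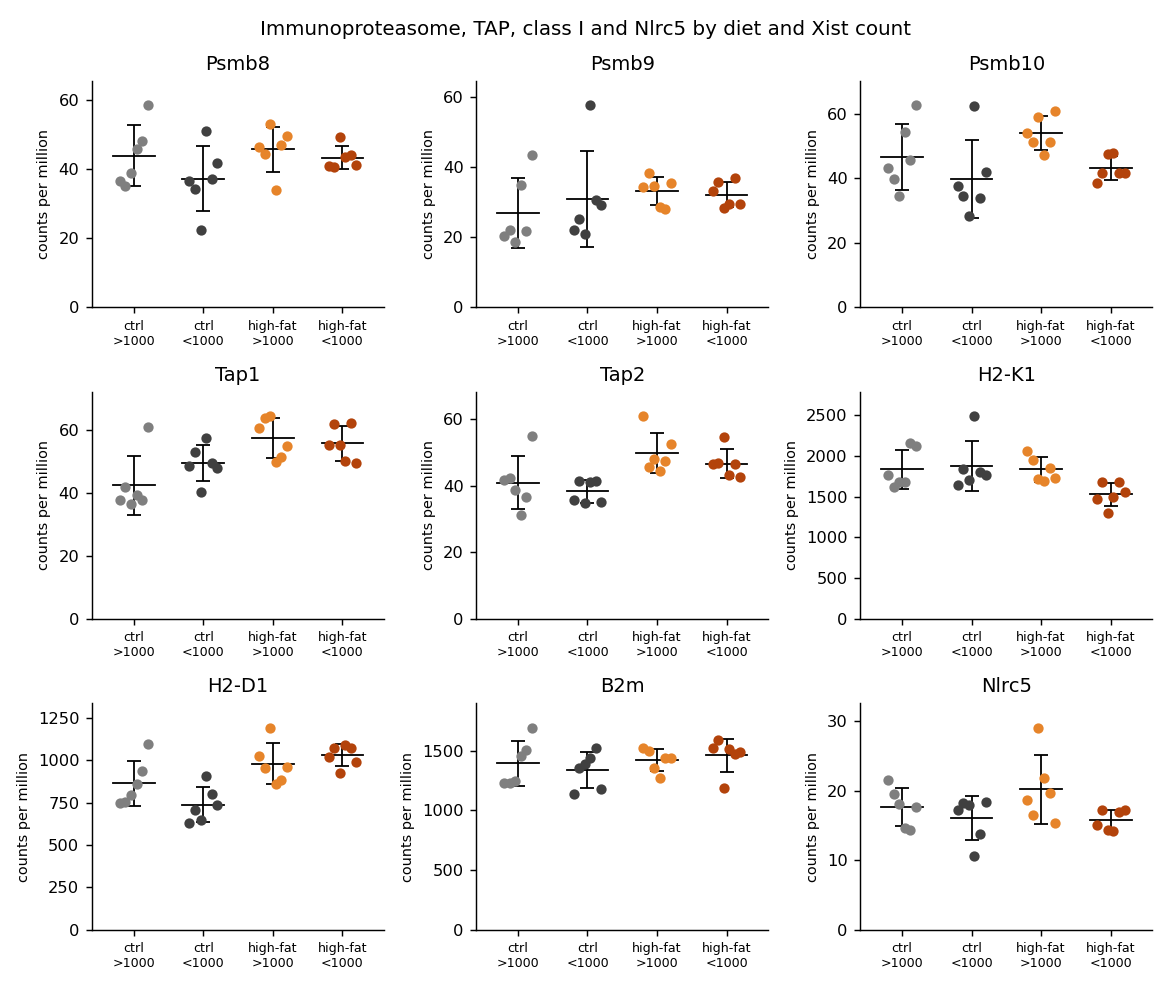
CPM of the 9 other genes in each library, by diet and by Xist above (>1000) or below (<1000) 1000 counts; bars give the mean and the whiskers the SD (n = 6). The diets overlap for each of the 9 genes, as for Psmb8, from 34.00 to 52.9 on the FFD and 22.5 to 58.4 on the control diet.

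The rest of the proteasome was not called higher or lower with diet, where 18.2% of all genes were called in either direction. Over the constitutive catalytic subunits, the other 20S subunits, the assembly chaperones and the 19S cap, 0 of 37 genes were called by edgeR, DESeq2 or limma-voom (6 at an unadjusted p under 0.05), with a median log2 fold change of -0.14, which was 0.18 with library totals alone, where 1 was called higher. Psmb5 was at 0.00390 (adjusted p = 0.986), Psmb6 at -0.24 (adjusted p = 0.240) and Psmb7 at -0.21 (adjusted p = 0.162). Among the other 20S subunits the most abundant were Psmb4 (-0.24), Psmb1 (-0.29) and Psma6 (-0.39). The maturation factor Pomp, which assembles new 20S particles, was at -0.25 (adjusted p = 0.268), with the chaperones Psmg3 at -0.14 and Psmg2 at -0.05. Of the 19S cap, Psmd2 was at 0.02, Psmd8 at 0.41 (adjusted p = 0.0158) and Psmd3 at -0.07. Of the activators, 0 of 4 were called by any of the 3 tools (1 at an unadjusted p under 0.05), too few genes to set against that share. Psme1 and Psme2, which form the interferon-inducible PA28 ring, were at 0.02 (adjusted p = 0.901) and -0.20 (adjusted p = 0.363), and Psme4, which encodes PA200, was at -0.31 (adjusted p = 0.00735).

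The ratio of an inducible subunit to the subunit it replaces, taken within each library, does not depend on library scaling. The log2 ratio of counts of Psmb8 to Psmb5 was -1.12 ± 0.23 in FFD livers against -1.21 ± 0.48 in control livers (SD, n = 12 each). For Psmb9 to Psmb6 it was -1.41 ± 0.20 in FFD livers against -1.802 ± 0.34 in control livers (SD, n = 12 each), and for Psmb10 to Psmb7 it was -1.07 ± 0.22 in FFD livers against -1.43 ± 0.41 in control livers (SD, n = 12 each). The diets overlapped for all 3 pairs, with 0, 0 and 1 of 12 FFD libraries above the highest control library. Between the library sets the ratios could be tested. On the control diet the ratio of Psmb8 to Psmb5 was -1.58 ± 0.38 in the 6 low-Xist libraries and -0.83 ± 0.20 in the 6 high-Xist libraries, a difference of -0.74 (exact two-sided permutation test, p = 0.00216, adjusted over 6 tests 0.00649). The ratio of Psmb10 to Psmb7 differed by -0.68 (exact p = 0.00216, adjusted 0.00649), from -1.77 ± 0.20 against -1.08 ± 0.24. A p of 0.00216 is the smallest that 6 against 6 libraries can give, and in both ratios the sets did not overlap.

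The third pair, Psmb9 to Psmb6, differed by -0.04 between the control sets (exact permutation p = 0.846, adjusted 0.877). On the FFD the differences between sets were -0.22 for Psmb8 to Psmb5, 0.02 for Psmb9 to Psmb6 and -0.23 for Psmb10 to Psmb7, with adjusted exact permutation p-values of 0.162, 0.877 and 0.130. Whether the set difference itself differs between the diets was not tested for the ratios. In the pairs Psmb8 to Psmb5 and Psmb10 to Psmb7 the terms had values of opposite sign between the control sets: Psmb5 had a log2 difference (low minus high Xist) of 0.58 (adjusted p = 0.0267) and Psmb7 of 0.48 (adjusted p = 0.0261), while Psmb8 was at -0.24 (SE 0.15) and Psmb10 at -0.23 (SE 0.15), none of them called. Control replicate 10 had 227 CPM of Psmb5, 269 of Psmb6 and 233 of Psmb7, against at most 105, 111 and 132 in the other 11 control libraries. Without that library the differences were -0.63 for Psmb8 to Psmb5 and -0.66 for Psmb10 to Psmb7, and the sets still did not overlap.

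**Figure D3:**
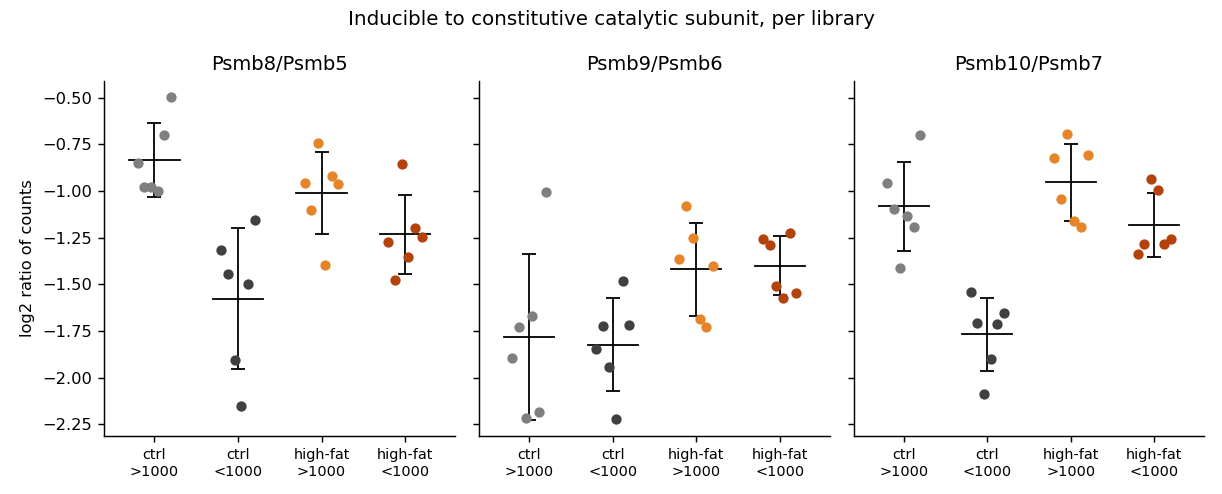
Log2 ratio of the counts of each inducible catalytic subunit to its constitutive counterpart in each library, by diet and by Xist above (>1000) or below (<1000) 1000 counts; bars give the mean and the whiskers the SD (n = 6). The control sets separate for Psmb8/Psmb5 (means -0.83 and -1.58) and Psmb10/Psmb7 (-1.08 and -1.77) and overlap for Psmb9/Psmb6.

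Both subunits of the peptide transporter were modestly higher on the FFD on average. Tap1 ran from 49.4 to 64.3 CPM (median 55.2, n = 12) in FFD livers and from 36.5 to 61.1 (median 44.9, n = 12) in control livers, with a log2 fold change of 0.30 (SE 0.09). Tap2 ran from 42.7 to 60.9 CPM (median 46.7, n = 12) in FFD livers and from 31.1 to 54.9 (median 39.9, n = 12) in control livers, with a log2 fold change of 0.28 (SE 0.08). The ranges overlapped, 4 of 12 FFD libraries being above the highest control library for Tap1 and 1 of 12 for Tap2, and in both genes control replicate 6 was the highest control. The Tap1 value was 0.45 among the 12 high-Xist libraries and 0.19 among the 12 low-Xist libraries, and that of Tap2 was 0.29 among the 12 high-Xist libraries and 0.30 among the 12 low-Xist libraries. Of the 7 genes on the list of peptide loading and trimming, 0 were called by edgeR, DESeq2 or limma-voom (4 at an unadjusted p under 0.05), with a median of -0.14, or 0.16 with library totals alone. Of all genes 18.2% were called in either direction, so nothing is read from 0 of 7. The chaperones of loading were at -0.14 (adjusted p = 0.252) for Calr, -0.13 (adjusted p = 0.285) for Pdia3 and -0.20 (adjusted p = 0.0221) for Canx.

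The classical heavy chains had small log2 fold changes of opposite sign under TMM scaling, and of the same sign with library totals alone. H2-D1 ran from 860.2 to 1193 CPM (median 1005, n = 12) in FFD livers and from 629 to 1094 (median 775, n = 12) in control livers, with a log2 fold change of 0.33 (SE 0.09). H2-K1 ran from 1302 to 2066 CPM (median 1689, n = 12) in FFD livers and from 1615 to 2488 (median 1766, n = 12) in control livers, with a log2 fold change of -0.14 (SE 0.09) that turned to 0.15 when library totals alone set the scale (all genes then had a median of 0.26) and was 0.01 among the 12 high-Xist libraries and -0.27 among the 12 low-Xist libraries. For H2-D1 the value was 0.19 among the 12 high-Xist libraries and 0.50 among the 12 low-Xist libraries. Within a library, the log2 ratio of H2-D1 to H2-K1 counts was -0.74 ± 0.23 in FFD livers against -1.22 ± 0.17 in control livers (SD, n = 12 each), and 8 of 12 FFD libraries were above the highest control library. This ratio, whose diet difference is also a description, does not rest on scaling, but H2-K1, H2-D1 and the H2-Q genes share long stretches of sequence and reads may have been assigned unevenly between them. B2m, the light chain, ran from 1183 to 1584 CPM (median 1478, n = 12) in FFD livers and from 1138 to 1692 (median 1373, n = 12) in control livers, with a log2 fold change of 0.08 (SE 0.08). FFD replicate 9 was the lowest of its diet for H2-K1 and B2m and the highest for Ubd.

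Among 16 other class I and class I-like heavy chains tested, 3 were called higher and 1 lower (median 0.15), and of all genes 13.2% and 4.99%. H2-M2, a nonclassical chain, rose by 3.404 (adjusted p = 1.07e-06) on the log2 scale, from 0.250 ± 0.228 to 2.83 ± 1.46 CPM (SD, n = 12 each), and its diets did not overlap. H2-Q1 rose by 1.45 (adjusted p = 1.72e-04), from 10.8 ± 4.87 to 29.9 ± 11.3 CPM, and H2-M3, which presents formylated peptides, by 0.69 (adjusted p = 7.45e-04). The diet difference of H2-M3 was larger by 0.999 in the low-Xist than in the high-Xist set (edgeR interaction of diet and set, adjusted p = 0.00473). H2-Q7 decreased by 0.58 on the log2 scale (adjusted p = 3.13e-05), from 129 ± 18.1 to 86.2 ± 15.2 CPM, and with library totals alone its -0.30 was not called (adjusted p = 0.0130). H2-Q10, a secreted class I chain of the liver, was at -0.23 (adjusted p = 0.106), H2-T23 at -0.21 (adjusted p = 0.174) and the neonatal Fc receptor Fcgrt at -0.22 (adjusted p = 0.125), none of them called. The H2-Q family therefore held 1 call in each direction, with the limit on read assignment given above.

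Nlrc5 ran from 14.2 to 29.05 CPM (median 17.03, n = 12) in FFD livers and from 10.6 to 21.5 (median 17.8, n = 12) in control livers. Its log2 fold change was 0.10 (SE 0.11), with 0.20 among the 12 high-Xist libraries and -0.01 among the 12 low-Xist libraries. On the FFD, 2 libraries exceeded the highest control library, replicate 3 at 29.05 CPM and replicate 4 at 21.8. Of the 16 other factors listed for class I and related promoters, 3 were called higher and 0 lower, with a median of 0.12, where 13.2% of all genes were called higher. These were Ciita, the class II counterpart of Nlrc5, at 1.95 (adjusted p = 2.16e-05), Relb, of the NF-κB family, at 1.94 (adjusted p = 2.65e-06), and Irf8, a factor of myeloid cells, at 1.23 (adjusted p = 1.26e-05). In all 3 the diet difference was larger in the low-Xist set, by 1.95, 1.45 and 1.42 (edgeR interaction, called). Irf1, an activator of class I genes, was at 0.33 (adjusted p = 0.00683), below the size threshold. Rfx5, the partner of Nlrc5 at promoters, was at 0.18 (adjusted p = 0.349), Rela at 0.04 (adjusted p = 0.722) and Irf2 at 0.07 (adjusted p = 0.604).

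Levels of different genes were compared per kilobase of exon (GENCODE M21 exon union), as CPM per kb. B2m was the highest in both diets, at 1675 ± 134 in FFD livers against 1586 ± 194 in control livers (SD, n = 12 each). H2-K1 followed at 573 ± 71.7 and 632 ± 89.95, then H2-D1 at 389 ± 37.1 and 311 ± 50.9, and these neighbours overlapped on the FFD but not on the control diet. The other genes were much lower. Psmb10 was at 28.5 ± 4.18 and 25.4 ± 6.58. Psmb8, Tap2, Tap1 and Psmb9 came next in that order in both diets, from 13.1 ± 1.49 down to 8.94 ± 1.01 on the FFD, and each overlapped the next. Ubd took different places in this order, the lowest of the 10 in control livers (0.552 ± 0.497) and between Psmb10 and Psmb8 on the FFD (14.4 ± 10.8), where its range overlapped both neighbours. Its place on the FFD rests on the length used, an exon union of 931 bases for Ubd and 3381 for Psmb8. In CPM, Ubd had the lowest mean of the 10 on the FFD as well. It was at 13.4, below Nlrc5 (17.99), Psmb9 (32.7), Psmb8 (44.5), Tap2 (48.3) and Tap1 (56.6). Nlrc5 was low in both diets, at 2.12 ± 0.487 and 1.98 ± 0.346.

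Genes of the signals known to induce this pathway were called higher in part. Of 10 tested genes of interferon-gamma and TNF signalling, 5 were called higher and 0 lower, with a median of 0.47, where 13.2% of all genes were called higher. Ifngr1 and Ifngr2, which form the interferon-gamma receptor, rose by 0.66 (adjusted p = 4.40e-04) and 0.71 (adjusted p = 1.28e-05). Tnf rose by 2.09 (adjusted p = 3.43e-05) and Ltb, which encodes lymphotoxin beta, by 1.67 (adjusted p = 2.36e-04), both from low levels (0.191 and 1.402 CPM on the control diet). The feedback inhibitor Socs1 rose by 1.07 (adjusted p = 0.00209). The lymphotoxin receptor Ltbr was at 0.02 (adjusted p = 0.855), the TNF receptor Tnfrsf1a at 0.27 (adjusted p = 6.55e-04) and the kinase Jak1 at -0.13 (adjusted p = 0.221). Ifng and Lta were too low to be tested. These values pool both library sets. By the edgeR interaction the diet difference was larger in the low-Xist set by 1.14 for Ifngr1 (adjusted p = 8.58e-05) and 2.41 for Ltb (adjusted p = 0.00118).

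The counts of the next lists also stand beside 13.2% of all genes called higher. Other interferon-gamma-inducible genes gave 6 higher and 0 lower of 16 tested, with a median log2 fold change of 0.54. They were the chemokines Cxcl10 (1.25) and Cxcl9 (0.76), the GTPases Tgtp2 (0.96), Gbp2 (0.94) and Gbp5 (0.84), and Cd274, which encodes PD-L1 (0.93), with adjusted p-values from 7.41e-05 to 0.00664. The abundant GTPases Iigp1 (-0.48), Irgm2 (-0.06) and Irgm1 (0.03) were not called. Of 18 type I interferon-stimulated genes, 7 were called higher and 0 lower, with a median of 0.47. The largest were Oas3 (1.54), Oasl2 (1.44), Oas2 (1.200) and Ifit2 (0.93), with adjusted p-values from 2.55e-06 to 0.00229, while the abundant Bst2 (0.14), Irf7 (0.21) and Ifit3 (0.59) were not called. MHC class II presentation gave 9 higher of 10, with a median of 1.97: H2-Eb1 rose by 2.22, H2-Aa by 2.21, Cd74 by 2.05 and H2-Ab1 by 2.05, while H2-Ob was at 0.58 (adjusted p = 0.0514). Of 14 genes of the CD8 T and NK cells that read class I, 1 was called, Gzmk, which encodes a granzyme, at 3.31 (adjusted p = 3.23e-04) with a mean of 0.330 CPM on the FFD, and Klrk1 (0.52), Nkg7 (0.78) and Cd8a (0.74) were not. These values pool both library sets. By the edgeR interaction the diet difference was larger in the low-Xist set for 8 of the 10 class II genes. The same was called for 2 of 16 interferon-gamma-inducible, 3 of 18 type I and 3 of 14 CD8 T and NK cell genes. Of all genes 2.57% were called in that direction.

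**Figure D4:**
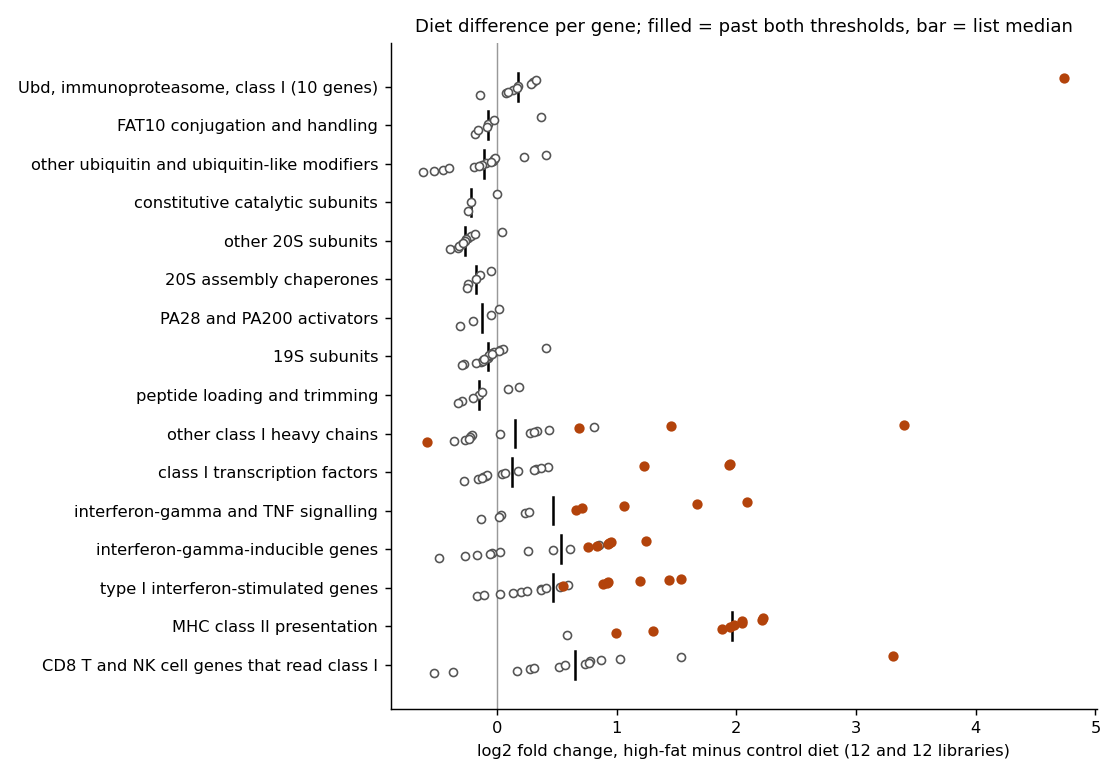
Log2 fold change, high-fat minus control diet (12 and 12 libraries), of each gene of the pathway lists; filled points passed both thresholds in edgeR and black bars are list medians. Ubd lies at 4.74, the other 9 genes of its row between -0.14 and 0.33, and the class II genes around 1.97.

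The split of the libraries by Xist was not used in choosing the genes, so differences between the sets within a diet were tested. On the FFD Ubd was 4.25-fold higher in the 6 libraries with low Xist (21.7 ± 7.17 CPM) than in the 6 with high Xist (5.11 ± 2.04), a log2 difference of 2.09 (SE 0.32) with an adjusted p of 6.64e-05 (edgeR, over 17913 genes). Each of the 6 was above all 6 of the other set. It was the 1 gene of the 10 called in this contrast, in which 6.39% of all genes were called, 2.97% higher and 3.42% lower. Over 30 alternatives its difference ran from 1.97 to 2.32, with adjusted p-values from 1.40e-07 to 3.66e-04. None of the other 9 genes was called by edgeR, DESeq2 or limma-voom, and 3 had an unadjusted p under 0.05: Nlrc5 at -0.35 (SE 0.15), Psmb10 at -0.32 (SE 0.15) and H2-K1 at -0.26 (SE 0.11), with adjusted p-values of 0.104, 0.148 and 0.125.

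On the control diet the Ubd difference between the sets was 1.35 (SE 0.52, adjusted p = 0.104), from 0.751 ± 0.499 against 0.277 ± 0.296 CPM. Control replicate 6 weighed on it: without that library, whose 0.877 CPM compares with at most 0.219 in the other 5 of its set, the difference was 2.200 and passed (adjusted p = 0.00843), and over all 30 alternatives the adjusted p ran up to 0.323. None of the 10 genes was called by edgeR, DESeq2 or limma-voom, where 5.74% of all genes were (2.24% higher), and 1 had an unadjusted p under 0.05. The diet difference of Ubd was larger by 0.73 (SE 0.65) in the low Xist set, which did not pass (adjusted p = 0.534), with an approximate 95% interval from -0.53 to 2.001. By the same interaction test 0 of the 10 were called by edgeR, DESeq2 or limma-voom and 0 had an unadjusted p under 0.05, where 4.04% of all genes were called, 2.57% with a larger and 1.47% with a smaller or opposite diet difference in the low-Xist set.

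The pathway lists were read in the same contrasts. In the control livers with low Xist, 9 of 16 interferon-gamma-inducible genes were called lower and 0 higher (median -1.01), among them Gbp2 at -1.47 (adjusted p = 2.89e-04) and Igtp, an interferon-inducible GTPase, at -1.02 (adjusted p = 5.08e-05). Of 18 type I interferon-stimulated genes 5 were called lower, led by Oas3 at -1.57 (adjusted p = 2.00e-06), and of 10 class II genes 5 were called lower, among them H2-Aa at -1.101 (adjusted p = 0.00514). The share of all genes called lower in this contrast was 3.5%. On the FFD 4 of the 16 interferon-gamma-inducible genes were called lower (median -0.34), and 1 of the 10 class II genes, Cd74, was called higher, at 0.96 (adjusted p = 0.00819). Between the FFD sets 3.42% of all genes were called lower and 2.97% higher. The counts varied with the tool. On the control diet DESeq2 and limma-voom called 11 and 7 of the interferon-gamma-inducible genes, 9 and 4 of the type I interferon-stimulated genes and 8 and 2 of the class II genes, and on the FFD they called 5 and 4 of the class II genes. Beside the control values, the Kupffer cell markers summed to 109 to 201 CPM in the low-Xist and 244 to 468 in the high-Xist libraries, the sinusoidal endothelial markers to 111 to 188 and 198 to 259.8 and the dendritic cell markers to 7.64 to 10.5 and 10.9 to 16.4, without overlap. The NK cell markers, at 0.0658 to 0.461 and 0.923 to 2.35 CPM, did not overlap either. Of the 14 CD8 T and NK cell genes, 3 were called lower in this contrast. The part of these cell types was not tested. The 37 constitutive proteasome genes had a median of 0.33 on the control diet, all 37 above 0 (34 with library totals alone, median 0.16) and none called by edgeR or limma-voom (1 by DESeq2, and 20 at an unadjusted p under 0.05). With library totals alone the median of all genes in that contrast moved from -0.00371 to -0.14. The inducible subunits ran from -0.24 (Psmb8) to 0.19 (Psmb9) where Psmb5 to Psmb7 ran from 0.38 to 0.58. These values include control replicate 10, of the low-Xist set, with 227, 269 and 233 CPM of Psmb5, Psmb6 and Psmb7. The other 11 control libraries had at most 105, 111 and 132. Without it Psmb8 was at -0.35, Psmb9 at -0.07 and Psmb10 at -0.41. The values of the 37 genes without that library are not given here.

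**Figure D5:**
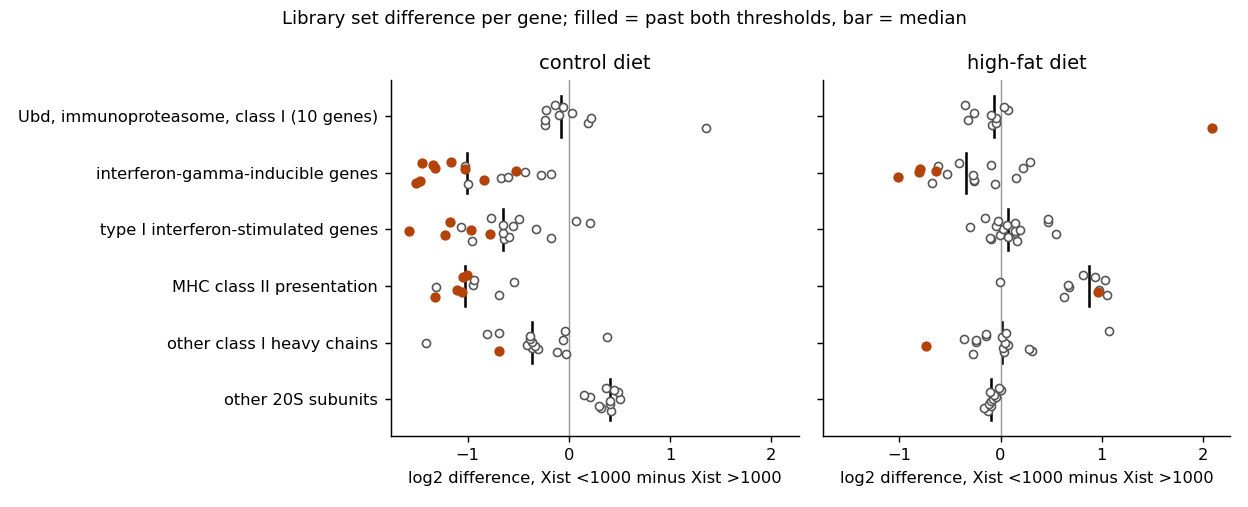
Log2 difference, libraries with Xist below 1000 counts minus those above, of each gene on the control diet (left) and the FFD (right), 6 against 6 libraries; filled points passed both thresholds in edgeR and black bars are medians. On the FFD Ubd stands at 2.09, and on the control diet the class II genes centre at -1.02.

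Markers of several cell types differed along with the Ubd difference between the sets. In FFD libraries the 5 cholangiocyte markers summed to 258 to 881 CPM where Xist was low and 31.6 to 176 where it was high, with all 5 called higher, including Epcam at 2.68 (adjusted p = 5.95e-04) and Krt19 at 2.41 (adjusted p = 0.00411). In that contrast 2.97% of all genes were called higher. The 6 markers of monocyte-derived macrophages summed to 174 to 255 against 99.7 to 134 CPM (Ccr2 and Cd9 called higher), the 6 of stellate cells and myofibroblasts to 368 to 561 against 186 to 352, and the 6 hepatocyte markers to 37337 to 47888 against 67641 to 91344. Those sums did not overlap between the sets. Of the 6 stellate cell and myofibroblast markers 0 were called between the FFD sets. Their log2 differences were above 0 for 3 and below 0 for 3 (median 0.14), so the list did not shift as a whole. Of the 6 hepatocyte markers 2 were called lower and all 6 were below 0, where 3.42% of all genes were called lower. The T cell markers (7 genes, Cd3e among them) summed to 4.12 to 9.09 against 2.45 to 4.43 CPM and the NK cell markers (5 genes) to 0.930 to 1.695 against 0.317 to 1.55. No list had a marker at 0 in all 12 libraries of either diet. Between the diets the same sums were 31.6 to 881 against 27.3 to 131 CPM for cholangiocytes and 99.7 to 255 against 18.3 to 55.2 for monocyte-derived macrophages, with 4 of 5 and 6 of 6 markers called higher. Of the stellate cell and myofibroblast markers 3 of 6 were called higher, and of the hepatocyte markers 4 of 6 lower. With diet 13.2% of all genes were called higher and 4.99% lower. The neutrophil markers, of which 3 of 4 tested were called higher with diet, summed to 0.403 to 2.12 CPM in control libraries, 1.46 to 3.91 in the low-Xist FFD libraries and 1.42 to 158 in the high-Xist FFD libraries, the highest being FFD replicate 3. Between the FFD sets S100a8 and S100a9, which encode calprotectin, were at -3.53 (adjusted p = 0.0127) and -3.39 (adjusted p = 0.0152), opposite in sign to Ubd and not called. The medians of the neutrophil sum ran the other way, 2.96 CPM in the low-Xist and 2.19 in the high-Xist FFD libraries. Values of S100a8 and S100a9 without FFD replicate 3 are not given here. The part of these cell types in the Ubd and class II values was not tested.

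Variation within a diet and set, which the choice of genes did not use either, was compared across the 24 libraries after the mean of each of the 4 groups was subtracted from log2(CPM + 1). Of 17 pairs, 2 passed by Pearson's r at an adjusted permutation p of 0.05 (100000 resamples within groups, adjusted over 34 values of r and rho). Ubd and H2-D1 had r = 0.55 (permutation p = 0.00502, adjusted 0.0483) and Spearman's rho = 0.53 (adjusted permutation p = 0.0536, from 0.00788). With the 2 libraries at the extremes of Ubd left out, r was 0.43. Ubd and Psmb8 had r = 0.54 (permutation p = 0.00443, adjusted 0.0483) and rho = 0.62 (adjusted permutation p = 0.0479, from 0.00141), with r = 0.54 without those 2 libraries. The rho of Ubd and Psmb9 also passed, at 0.53 (adjusted permutation p = 0.0483), and its r of 0.40 did not (adjusted permutation p = 0.0969). Both calls sat at the threshold: leaving out 1 library left 0 pairs past it by r for 19 of the 24 libraries, all but FFD replicates 8, 9 and 12 and control replicates 11 and 12. Within the FFD alone, where 12 libraries entered, r was 0.35 for H2-D1 and 0.66 for Psmb8 and 0 pairs passed, and within the control diet it was 0.81 and 0.57. On the control diet alone 2 pairs passed, Ubd with H2-D1 (adjusted permutation p = 0.0433) and Ubd with B2m (r = 0.77, adjusted permutation p = 0.0226), and the r of Ubd with B2m on the FFD was -0.34. Library totals alone gave 5 pairs.

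The other pairs of Ubd had r of 0.43 with Tap1, 0.42 with Psmb10, 0.41 with Tap2, 0.40 with Psmb9, 0.21 with B2m, 0.14 with H2-K1 and -0.11 with Nlrc5. With its 8 partners Nlrc5 had r from -0.48 with Psmb9 to -0.07 with Tap2 under TMM, and 0 of the 8 passed by r or by rho. The sign was not the same throughout: with library totals alone r was 0.21 with Tap1, 0.29 with Tap2 and 0.03 with H2-D1, within the FFD it was 0.47 with H2-D1 and 0.20 with Tap1, and within the control diet 0.07 with Tap2. Library depth differed along with these values: the residuals of log2 total counts had r = 0.40 with Nlrc5, -0.57 with Psmb9 and -0.60 with H2-K1 across the same 24 libraries, given as a description, and the part of depth was not tested.

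By the same residuals, the genes whose variation was most like that of Ubd among 13917 with a mean of at least 10 counts included Acss1 (r = 0.85), Hes1 (r = 0.85), S100a6 (r = 0.82) and Kcnn4 (r = 0.81), over 24 libraries. They were picked as the highest of many and carry no test. Of the other 9 genes of the pathway, H2-D1 stood closest to Ubd, at rank 389, followed by Psmb8 at rank 433, and Nlrc5 was at rank 8908. For Nlrc5 the 5 most alike were Zfhx2 (r = 0.85), Mdm4-ps (r = 0.84), Klhdc10 (r = 0.84), Vegfa (r = 0.83) and Ranbp10 (r = 0.82), and all 5 had positive r with log2 total counts, from 0.34 to 0.60.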

How the data were processed

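Processed values came from 1 deposited table of raw counts per Ensembl gene, in which the authors gave 1 column per library and did not pool replicates. Per the labels, RNA was Trizol-extracted from whole liver and poly(A)-selected, and the submitters' processing notes name bcl2fastq, STAR 2.7.3a and mm10. The counting program, its strand setting and the annotation of the mouse libraries are not given in the sources used here. Symbols and exon lengths were taken from GENCODE M21 (GRCm38), which holds 51745 of the 56205 row identifiers. The other 4460 carried 0.0723% of counts. Total counts per library were 14468418 to 22112552.

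The 17913 genes detected (1 count or more) in 12 or more libraries were tested with edgeR 4.0.16 (TMM, glmQLFit and glmQLFTest, R 4.3.3) with diet alone, or with diet and library set as 4 groups, and p-values were adjusted by Benjamini-Hochberg over all of them. Calls needed an adjusted p no higher than 0.01 and a log2 fold change beyond 0.5 in size, the thresholds the study states for RNA sequencing. SEs were derived from the log2 fold change and its F statistic. DESeq2 1.42.0, limma-voom (limma 3.58.1), other scalings and filters, the replicate number as a block, and leaving out each library were alternatives. Correlations and their permutations used numpy 2.4.6, with a pseudocount of 1 added to CPM. Exact permutation tests of the ratios used scipy 1.17.1 on counts without a pseudocount. The statistical scripts were tested on simulated data. Within a diet no 2 libraries agreed within counting noise (lowest chi-square per degree of freedom 9.47). Nothing in the labels says that libraries are separate animals except the design text's number of mice, so p-values measure the spread between libraries. Promoters came from RefSeq (GRCm38.p6).

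The 10 genes, the gene lists, the split by Xist counts and the tests were chosen with earlier results of these data known. Genes were named by rule: all 10, all called genes of a list where 6 or fewer were called and otherwise the 4 with the largest fold change, up to 3 uncalled genes of a list with the highest mean count, Psmb5, Psmb6, Psmb7, Irf1, Rfx5 and Ciita, and the 5 genes most like Ubd and Nlrc5. Genes named in the comparisons of library sets were picked after their values were seen. Some genes that the rule would name are not reported here.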

Additional observations from a re-analysis of the deposited data

Results flagged for a closer look

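Among the 40 groups of 6 libraries (10 genes, 2 diets and 2 library sets), 6 held a library far from the other 5 by Dixon's test, of which chance alone gives about 1 in 20. Control replicate 6 was high for Ubd, at 0.877 CPM with the nearest library at 0.219, and for Tap1, at 61.1 CPM with the nearest at 41.8. Control replicate 10 was high for Psmb9, at 57.6 CPM with the nearest at 30.7, and for H2-K1, at 2488 CPM with the nearest at 1845. The H2-K1 flag rests on TMM scaling, where the factor of this library was 0.679. In raw counts it held 24433 of H2-K1, the lowest of the 12 control libraries, from the smallest total of the 24 (14468418). FFD replicate 9 was high for Tap2, at 54.6 CPM with the nearest at 46.9, and low for B2m, at 1183 CPM with the nearest at 1470.0.

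The diet effect differed between the library sets, by the interaction term of the edgeR fit, for 22 of the 165 genes tested from the pathway lists, where 4.04% of all genes were called, and for none of the 10 genes described. With a plus sign for a larger diet effect where Xist was low, the log2 differences among class II genes were H2-Aa 2.07, Cd74 2.01, H2-DMb2 1.99, H2-Ab1 1.97, H2-Eb1 1.97, Ciita 1.95, H2-DMb1 1.82 and H2-DMa 1.62. Among interferon-responsive genes they were Oas3 1.72, Ifit2 1.64, Tgtp2 1.54, Gbp5 1.46 and Oasl2 1.32. For receptors, ligands and factors they were Ltb 2.41, Relb 1.45, Irf8 1.42 and Ifngr1 1.14. Lymphocyte genes gave Ncr1 4.28, Cd8a 3.62 and Nkg7 2.75, all from low counts. The class I chain H2-M3 gave 0.999 and the 19S subunit Psmd2 gave -0.53. The adjusted p-values of these 22 genes ran from 8.58e-05 to 0.00978.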

How the results depend on the processing

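The Ubd diet difference stayed above 4 on the log2 scale in all 34 alternatives (4.14 to 5.104), the lowest being 4.14 among high-Xist libraries. The alternatives reuse the libraries by which the gene was chosen, so this range describes the processing and is no test of the diet. The Ubd difference between the sets on the FFD kept its call in all 30. H2-K1 changed sign in 2 of 34 (library totals alone, and the high-Xist libraries) and Nlrc5 in 1 (within the low Xist set). The interaction of H2-D1 passed with library totals alone (0.66, adjusted p = 0.00414). Counts of calls moved by over 1.5 times as follows. With library totals alone the diet gave 3827 genes higher and 226 lower, and 50 higher and 0 lower of the pathway lists, where TMM gave 33 and 1. Within the high Xist set it gave 525 and 162, and 10 and 0 of the lists; within the low Xist set 1430 were lower, and 54 and 3 of the lists. DESeq2 and the library set as a covariate each gave 2 list genes lower. The interaction gave 724 genes, 1318 with library totals alone, 1352 with DESeq2 and 376 with the replicate block. The 17 correlations gave 2 pairs, 5 with library totals alone and 0 within the FFD. Leaving out 1 library at a time gave 1 to 2 list genes lower with diet, 711 (without FFD replicate 9) to 1446 genes between the sets on the FFD, 493 to 1178 (without control replicate 11) for the interaction, and 0 to 3 correlated pairs. The causes were not tested. The replicate number was tried as a block. Same-numbered libraries of the 2 diets deviated together with r from -0.10 to 0.58 about the diet means and from -0.28 to 0.31 about the diet and set means, over 0.1 for 11 and 5 of 12 numbers, and replicate numbers were read as names only. With the block, 2063 genes were higher and 844 lower with diet, 30 and 1 of the lists, and Ubd was at 4.66. Depth limits Ubd in the control libraries, where 2 to 29 counts stand behind each value.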
